A study of Drosophila melanogaster x Drosophila simulans and Drosophila melanogaster and Drosophila simulans with 186 samples.

Results

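The maternal axis determinants described here are 9 genes, bcd, cad, dl, Tl, tor, trk, stau, exu and swa, of the 13577 genes with an expression value in cryosliced blastoderm embryos of Drosophila. They were picked by gene symbol, as genes whose products the mother places in the egg to set up the body axes, and the rule itself uses no measured value, though earlier results of these data were known when it was written. All 9 had an expression level in every slice used, and 8 of 9, all but dl, were listed in the table of allele-specific expression (ASE). Single embryos were cut from head to tail into 25 to 27 slices, and the RNA of each slice was sequenced on its own, 186 slices in all. The melXsim hybrids (3 embryos) had a D. melanogaster DGRP-340 mother and a D. simulans w501 father, the simXmel hybrids (2 embryos) had the reverse, and 1 embryo of each parent strain was sliced, melXmel for DGRP-340 and simXsim for w501. All were blastoderm embryos of cycle 14C, laid within 2 hours and kept at 25 °C, fixed in methanol and matched by eye for how far the cell membranes had grown in. The embryo was the replicate throughout, so that the hybrids were compared as 3 against 2 and the single parental embryos are given as values without a test.

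In the Drosophila ovary, nurse cells load the egg with RNA, and 3 patterning systems rest on that load, for the head-to-tail axis, for both ends and for the back-to-belly axis. Bicoid, the homeodomain protein of bcd, is made from RNA held at the anterior pole and turns on head and thorax genes, while Exuperantia, Swallow and the RNA-binding protein Staufen (exu, swa, stau) are needed to bring bcd RNA to that pole or keep it there, and Staufen also acts on oskar RNA at the posterior pole. Caudal (cad) is a homeodomain protein whose maternal RNA fills the egg and is kept from translation at the anterior by Bicoid, and the embryo later makes its own cad RNA near the posterior. Trunk (trk) is the ligand and Torso (tor) the receptor tyrosine kinase that act at both ends of the embryo. Toll (Tl) is the receptor that, once activated on the ventral side, sends Dorsal (dl), a transcription factor of the NF-kappaB family, into the nuclei there. Around cycle 14 maternal RNA is being cleared while the embryo's own genome takes over. In the hybrids of this series the paper estimates that maternally deposited transcripts still outnumber zygotic ones.

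In release 5 of the D. melanogaster genome, the coordinates the deposited files use, bcd (FBgn0000166) lies on chromosome arm 3R from 2581564 to 2585188 and Tl (FBgn0262473) on 3R from 22624763 to 22668125. The arm 2L holds cad (FBgn0000251, 20770731 to 20783135), dl (FBgn0260632, 17436830 to 17450364) and trk (FBgn0003751, 10271443 to 10272324). On 2R lie tor (FBgn0003733, 3592688 to 3596689), stau (FBgn0003520, 14005401 to 14013284) and exu (FBgn0000615, 16554932 to 16558588), and swa (FBgn0003655, 6257451 to 6259741) is on X. These spans are the whole loci, introns and untranslated regions included.

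Expression is given in FPKM, which scales the fragments of a gene to its transcript length and to the mapped fragments of the library. The slices with FPKM values numbered 169 of 186, 20 to 26 per embryo, and 178 had ASE values. Total allele-assigned counts ran from 430706 to 3958310 per slice among those 169. Each embryo was divided along its length into 3 equal stretches, the anterior, middle and posterior region. The slicing direction could be checked in the RNA itself: the head genes oc, ems and gt were higher in the anterior region in 21 of 21 pairs of gene and embryo, and the posterior genes pgc, gcl, osk, nos and Abd-B were higher in the posterior region in 34 of 35. The blastoderm genes nullo, bnk, Sry-alpha, slam, eve and ftz summed to between 838.4 (simXsim) and 4019 FPKM (melXsim 3) per embryo. Their sum was 1699 to 4019 FPKM in melXsim and 1027 to 2357 in simXmel, ranges that overlap. The part of a difference in stage in the members' levels was not tested. The ovary and yolk genes Cp36, Cp38, Yp1 and Yp2 summed to 33.95 FPKM in the embryo melXsim 2 and to at most 0.1912 in each of the other 6. In 2 embryos a single slice went against its neighbours. Slice 21 of melXsim 2 held 17.98 FPKM of bcd and 110.15 of pgc, where the higher of its neighbours held 0.61 and 10.56, and slice 3 of simXmel 2 held 15.97 of exu and 77.15 of pgc against 0.81 and 14.79. Both are kept, and FPKM results that turn on them are also given without them.

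Tl was the most abundant of the 9 genes and dl the least. Averaged over the 7 embryos, the mean level over slices was 108 FPKM for Tl, 66.6 for stau, 13.9 for cad, 8.47 for tor, 3.96 for exu, 2.64 for trk, 2.58 for swa, 1.24 for bcd and 0.313 for dl. FPKM is scaled by transcript length, so this order compares genes per length. Tl ranged from 53.2 to 134 FPKM among embryos and stau from 57.9 to 86.2, and these ranges overlapped. stau and cad (6.97 to 30.9) did not overlap, while every neighbouring pair further down the order did. Tl and stau were read in all 169 slices, whereas dl was listed at 0 in up to 18 slices of an embryo and bcd in up to 7. In hybrids, 8 of 9 members reached the mean of 1 FPKM that the tests across genes required, and dl did not. A slice holds many cells of unlike kinds, and fewer cells of a type and less RNA per cell cannot be told apart in any of these values.

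**Figure D1:**
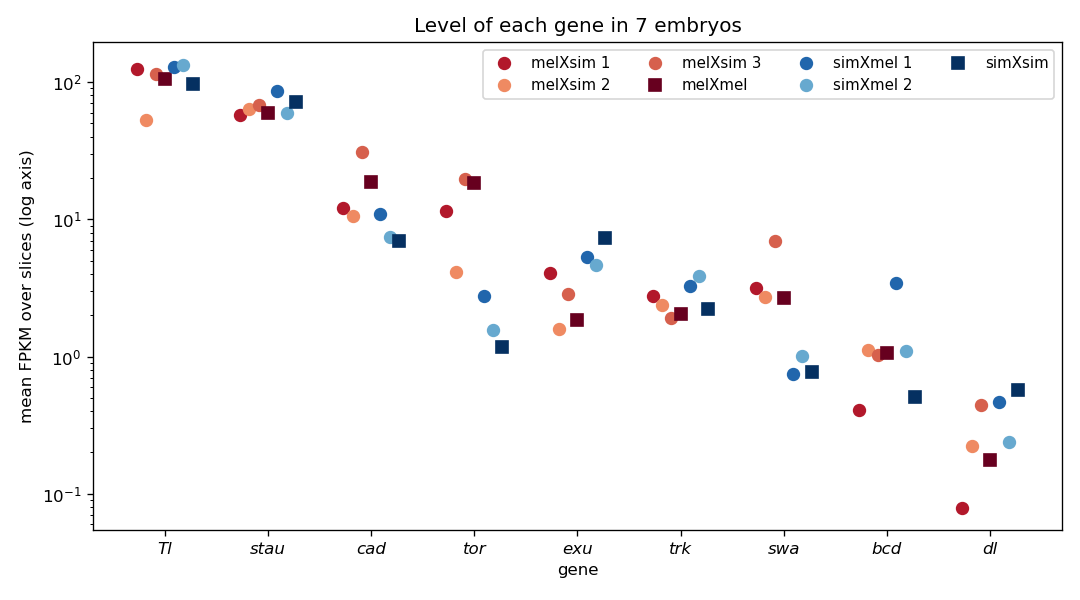
Mean FPKM over the slices of each embryo (vertical axis, log scale) for the 9 genes (horizontal axis), with a point per embryo coloured by cross. tor and swa sit lower in both simXmel embryos than in the 3 melXsim embryos, whereas the points of stau lie between 57.9 and 86.2 FPKM in every cross.

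The receptor gene tor and the RNA-localisation gene swa were lower in hybrids of a D. simulans mother, and no other member differed in level by the test. The mean tor level was 11.6, 4.16 and 19.7 FPKM in melXsim 1, 2 and 3 against 2.78 and 1.56 in simXmel 1 and 2. Every melXsim embryo was above both simXmel embryos, with melXsim 2 the lowest of its cross. The difference of simXmel from melXsim, fitted with limma across 6722 genes on log2(mean FPKM + 1), was −1.83 (SE 0.51, Benjamini-Hochberg adjusted p = 0.0296), and the ratio of the plain means was 5.44. The single parents lay the same way, at 18.4 FPKM of tor in melXmel and 1.16 in simXsim, a ratio of 15.8. For swa the levels were 3.16, 2.73 and 6.95 FPKM in the melXsim embryos and 0.745 and 1.02 in the simXmel embryos. These groups did not overlap either, and the limma difference was −1.41 on the same log2 scale (SE 0.37, adjusted p = 0.0226). The parental embryos held 2.68 and 0.777 FPKM of swa, 3.45 times as much in melXmel. The scale with 1 FPKM added understates the change of genes as low as swa. With a mean of 0.88 FPKM in simXmel and 4.28 in melXsim, swa passed the filter of 1 FPKM through the group where it was high, and without the filter its adjusted p was 0.151 and that of tor 0.181.

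Both calls were close to the threshold. With the library batch as a term (replicate 1 of each direction was prepared in a first batch, the others later), the adjusted p was 0.0598 for tor and 0.0585 for swa, and left-out embryos ended the calls too: tor was no longer called without melXsim 1 (0.062), melXsim 3 (0.0724), simXmel 1 (0.103) or simXmel 2 (0.212), and swa without melXsim 3 (0.0561), simXmel 1 (0.151) or simXmel 2 (0.0958). The direction stayed. Of all genes tested, 17% differed between the directions and 8.33% were higher in melXsim, and the members' count was 2 of 8, both higher in melXsim, swa being 1 of them. The embryos of the directions did not overlap for 5 of 8 members, Tl, tor, trk, exu and swa, against 47.5% of all genes.

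The other members' levels did not pass that test. Mean cad was 12.02, 10.5 and 30.9 FPKM in melXsim and 10.9 and 7.39 in simXmel, so that the directions overlapped (difference −0.76, SE 0.45, adjusted p = 0.283 in limma). Tl was 125, 53.2 and 115 FPKM against 129 and 134, where melXsim 2, the embryo with the yolk-gene RNA, stood low (0.52, SE 0.34, adjusted p = 0.341). The part of the yolk-gene RNA in the Tl or tor level of melXsim 2 was not tested. The values of stau, 57.9, 63.7 and 68.5 FPKM against 86.2 and 59.4, were the closest between directions (0.18, SE 0.27, adjusted p = 0.701). The ligand gene trk, at 2.77, 2.39 and 1.91 FPKM against 3.26 and 3.87, was higher in both simXmel embryos than in any melXsim embryo but did not pass either (0.45, SE 0.30, adjusted p = 0.356).

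Along the axis, cad was the member with the steepest pattern. The anterior region held 1.60, 1.75 and 3.51 FPKM of cad in melXsim and 1.74 and 0.602 in simXmel, and the posterior region held 26.4, 23.7 and 65.5 against 22.7 and 17.8. The posterior region was thus above the anterior region in all 5 hybrids, and so it was in melXmel (6.25 and 36.1) and simXsim (0.611 and 19.9). The anterior minus posterior difference was −3.41 on the log2 scale (SE 0.12, adjusted p = 1.34e-07 in limma), a 10.6-fold higher posterior level. The highest slice lay between 83.3 and 90.0% of egg length from the anterior end in all 7 embryos, with 47.9 to 96.4 FPKM there, and cad then fell toward the tip, to 4.73 to 28.5 FPKM in the last slice. This posterior band had the same side in each cross, and the difference in slope between directions was 0.15 (SE 0.24, adjusted p = 0.817).

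**Figure D2:**
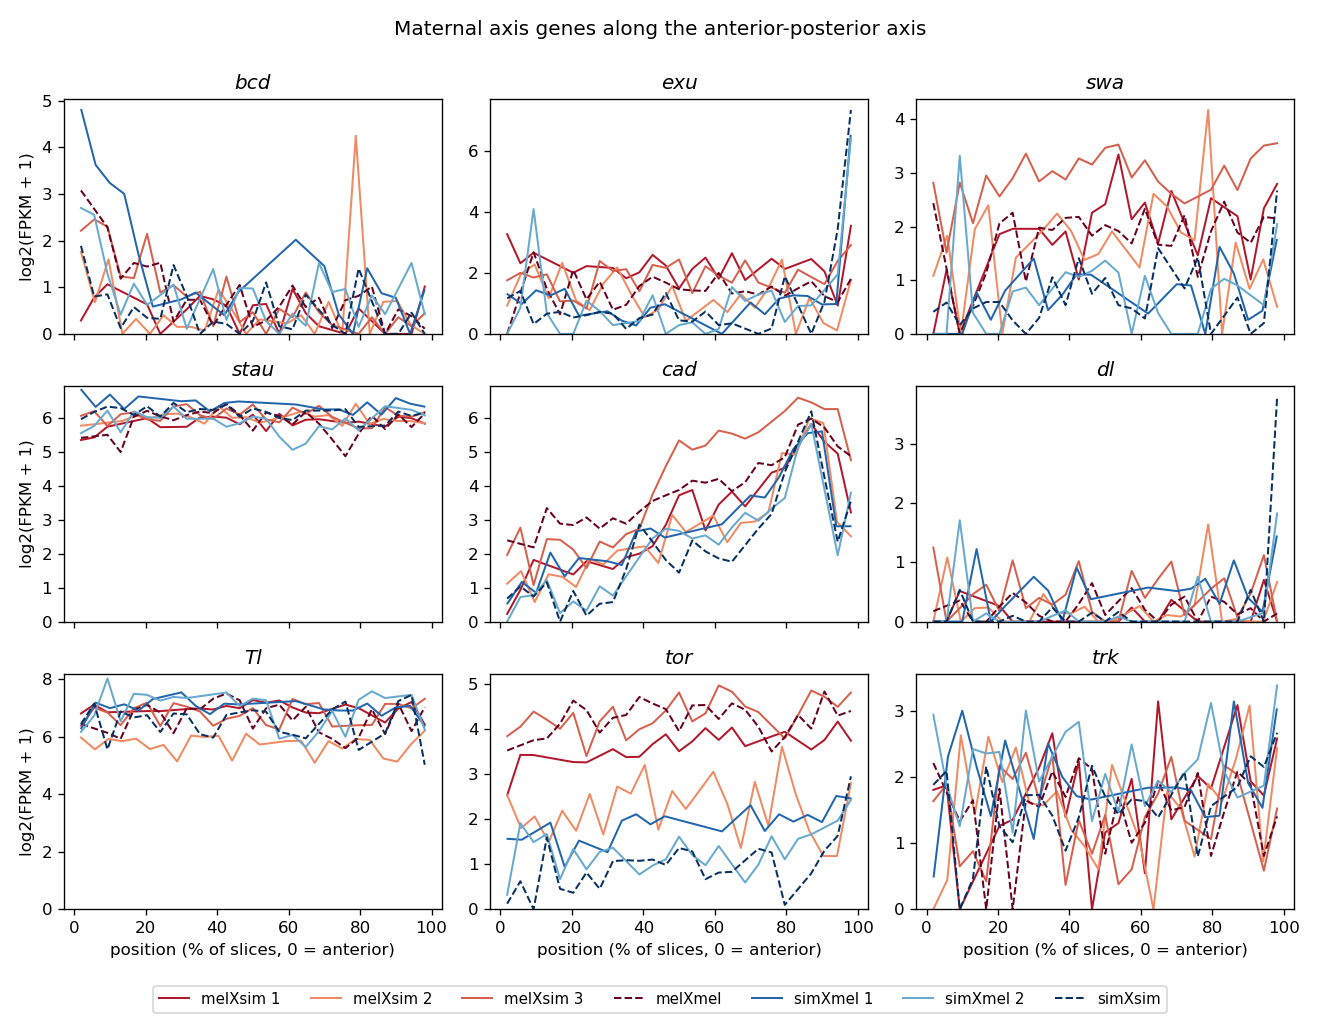
Level of each of the 9 genes as log2(FPKM + 1) (vertical axes, own scale per panel). The horizontal axes give slice position in percent of egg length from the anterior end, with a line per embryo coloured by cross. The levels quoted in this caption are plain FPKM, before the log. cad peaks between 83.3 and 90.0% in all 7 embryos, bcd is highest in the first slices of most embryos, and exu reaches 83.1 to 159 FPKM in the last slice of the simXmel and simXsim embryos and 2.38 to 10.6 in that of the other 4.

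The anterior determinant bcd was scarce at this stage and its traces lay at the front. The first slice held 0.222, 2.38 and 3.63 FPKM in melXsim, 26.8 and 5.49 in simXmel, 7.42 in melXmel and 2.71 in simXsim. The value of simXmel 1 stood far above the rest, and its next slices still held 11.3 and 8.40 FPKM, whereas the first slice of melXsim 1 had almost none. Of the slices used, the one with the most bcd was among the first 3 in 6 of 7 embryos. In melXsim 2 it was the doubtful slice 21, and without that slice it was slice 1. Slices left out by the authors held more bcd in melXsim 1 (slice 4, 3.32 FPKM) and in simXsim (slice 19, 3.17 FPKM). The anterior region averaged 0.505, 0.643 and 2.30 FPKM in melXsim and 8.14 and 1.75 in simXmel, against 0.229, 2.22 and 0.193, and 0.774 and 0.889, in the posterior region. The anterior region was thus higher in 4 of 5 hybrids, all but melXsim 2, and without slice 21 melXsim 2 too was higher at the anterior, at 0.643 against 0.248 FPKM. Over all slices the anterior excess of 0.86 (SE 0.35) did not pass the limma test (adjusted p = 0.124), and without the doubtful slices it was 1.09 and did (adjusted p = 0.0228). Whether the first slice held more bcd in simXmel was tested across 6816 genes, also after these values were seen. The difference was 2.33 (SE 0.83), with an adjusted p of 0.129 and an unadjusted p of 0.0129 in limma. With single embryos left out it lay between 1.28 (without simXmel 1) and 3.38 (without simXmel 2). In that slice 0 of 7 members tested passed, 2 of them (bcd and tor) had an unadjusted p under 0.05, and 5.53% of all genes passed. The difference in slope between the directions was 1.19 (SE 0.70, adjusted p = 0.496 in limma), 0.74 without the doubtful slices, and 0.28 without simXmel 1 to 2.10 without simXmel 2. With a mean of 0.851 FPKM in melXsim and 2.27 in simXmel, bcd passed the filter of 1 FPKM through the group where it was high. Without the filter the limma adjusted p was 0.404 for the anterior excess over all slices and 0.714 for the difference in slope between the directions.

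Of the genes that localise bcd RNA, exu was higher in the last slice, at the opposite pole, than in the slice before it in all 7 embryos, and its level there was highest in the embryos of a D. simulans mother. In the last slice exu stood at 10.6, 2.38 and 6.50 FPKM in melXsim 1, 2 and 3, at 88.3 and 83.1 in simXmel 1 and 2, at 2.48 in melXmel and at 159 in simXsim. The 3 embryos of a D. simulans mother were all above the 4 of a D. melanogaster mother, with no overlap. The slice just before it held 0.90, 0.08 and 4.23 FPKM in melXsim, 0.97 and 2.85 in simXmel, 1.06 in melXmel and 9.79 in simXsim, each below the last slice of its embryo. The last slice was the highest of all in melXsim 1 and melXsim 3 too. That slice alone held 82.8 and 71.7% of the summed exu FPKM of simXmel 1 and 2 and 86.6% of that of simXsim, against 11.9, 5.99 and 8.70% in melXsim and 5.19% in melXmel. In the other slices the order was turned, with means of 3.74, 1.55 and 2.73 FPKM in melXsim and 0.963 and 1.37 in simXmel.

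The test of this difference in slope passed: the anterior minus posterior difference of exu was 0.13, 0.45 and −0.37 in melXsim and −2.55 and −1.99 in simXmel, and the directions differed by −2.34 (SE 0.30, adjusted p = 0.0174 in limma). exu was the 1 member of 8 that passed, where 0.446% of all genes did. The estimate stayed between −2.62 and −2.06 with any embryo left out, but the adjusted p was 0.318 without the filter on low values, 0.0593 with all deposited slices, 0.0585 without melXsim 1, 0.0816 without melXsim 2, 0.161 without simXmel 1 and 0.0672 without simXmel 2. Taken over all hybrids, exu was higher at the posterior (−1.10, SE 0.15, adjusted p = 0.000823), which the values above show to rest on the simXmel embryos. A test of the last slice alone, added after these values were seen and so a description of their size, gave 3.70 (SE 0.52, adjusted p = 0.000357), 13-fold on the scale with 1 FPKM added, and 28 of 6775 genes had a larger increase. Its adjusted p was 0.105 without simXmel 1 and 0.121 without simXmel 2, which leave a single simXmel embryo. Of 7 members tested in that slice exu alone passed, against 10.9% of all genes, 6.80% of them higher in simXmel. The directions did not overlap for 3 of 7 members there, tor, trk and exu, against 43.2% of all genes.

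The last slice is where the pole cells, the germline precursors, sit, and their RNAs moved with exu. The pole cell gene pgc, whose product holds down transcription in those cells, stood in the last slice at 587, 169 and 390 FPKM in melXsim, at 778 and 805 in simXmel, at 364 in melXmel and at 1246 in simXsim. nos, the posterior determinant that the germ plasm keeps, stood at 69.9, 1.11 and 62.2 FPKM against 206 and 141, with 40.1 in melXmel and 348 in simXsim. Both were thus highest in the same 3 embryos as exu, though neither passed the last-slice test (pgc 1.22, SE 0.40, adjusted p = 0.0626; nos 3.02, SE 1.03, adjusted p = 0.0717). The germ plasm gene gcl did pass (1.74, SE 0.40, adjusted p = 0.0113 in limma), and osk did not (1.61, SE 0.67, adjusted p = 0.137). Set against pgc of the same slice, exu amounted to 1.81, 1.41 and 1.67 FPKM per 100 of pgc in melXsim, 11.4 and 10.3 in simXmel, 0.682 in melXmel and 12.8 in simXsim. The ratio was thus higher in all 3 embryos of a D. simulans mother. The part that the number of pole cells in the terminal slice had in the exu level was not tested.

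**Figure D3:**
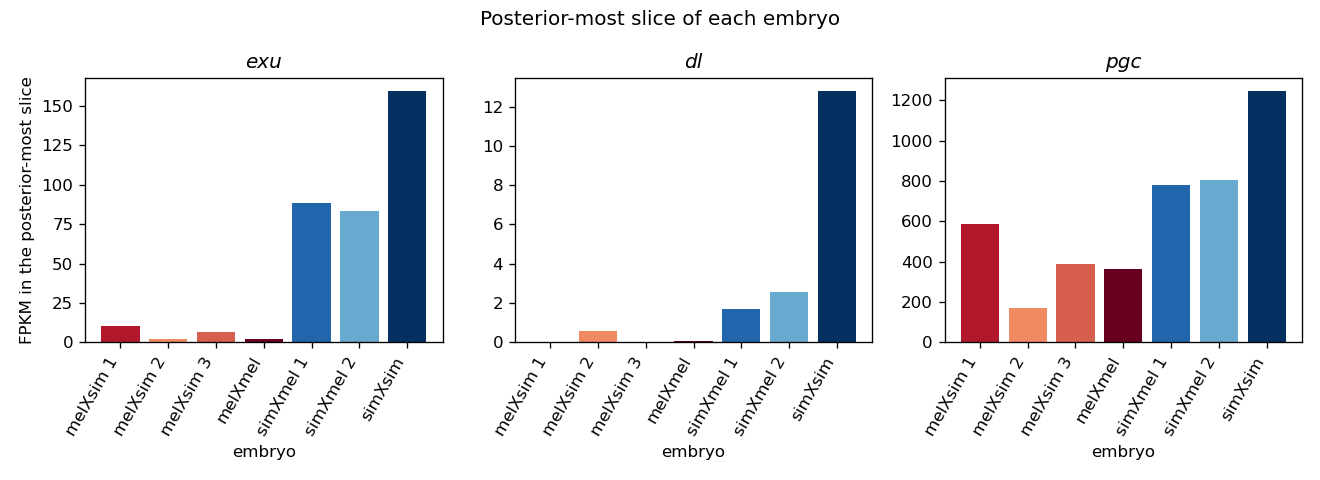
Level in the last slice of each embryo (vertical axes, FPKM, linear, own scale per panel) for exu, dl and the pole cell gene pgc, with a bar per embryo (horizontal axes). exu lies at 83.1 to 159 FPKM in the 3 embryos of a D. simulans mother and at 2.38 to 10.6 in the other 4, while the pgc bars span 169 to 1246.

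dl RNA, though close to the floor of detection, was likewise highest in the last slice of the embryos of a D. simulans mother. The last slice held 0, 0.59 and 0 FPKM of dl in melXsim, 1.71 and 2.55 in simXmel, 0.10 in melXmel and 12.8 in simXsim. The mean over each embryo stayed at or under 0.567 FPKM, so dl entered none of the tests of level or slope. For swa, the last slice held 5.95, 0.42 and 10.8 FPKM in melXsim and 2.37 and 3.13 in simXmel, which overlapped (−0.39, SE 0.75, adjusted p = 0.791 in limma). The slope of swa along the axis, −0.32 (SE 0.15), did not pass (adjusted p = 0.168). stau, which also serves the posterior pole in the ovary, was even from end to end, at 50.8 to 94.3 FPKM in the anterior region and 59.6 to 79.8 in the posterior region of the hybrids (0.03, SE 0.06, adjusted p = 0.799).

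Of the receptor genes, tor passed the test along the axis and Tl did not, and the genes were not tested against each other. tor was somewhat higher at the posterior in each hybrid, with anterior minus posterior differences of −0.54, −0.21 and −0.38 in melXsim and −0.63 and −0.31 in simXmel. The limma estimate was −0.42 (SE 0.10, adjusted p = 0.0182), a 1.34-fold difference, and the call was lost without melXsim 1 (adjusted p = 0.057), without simXmel 1 (adjusted p = 0.135) or without the filter on low values (adjusted p = 0.0831). Without the doubtful slices the tor estimate was −0.38 (adjusted p = 0.0489 in limma). Tl was nearly flat (0.12, SE 0.05, adjusted p = 0.108), with 121, 53.6 and 115 FPKM in the anterior region of melXsim and 136 and 152 in simXmel, against 118, 50.2 and 120, and 119 and 126, in the posterior region. trk, the ligand, did not pass (−0.18, SE 0.13, adjusted p = 0.379). In all, 3 of 8 members (cad, exu and tor) passed the test of anterior against posterior level, each higher at the posterior, where 19.3% of all genes passed and 9.67% were higher at the posterior.

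Which parent's copy the RNA came from was read from bases that differ between the species. ASE is the count of D. simulans reads minus that of D. melanogaster reads over their sum, so that −1 is all D. melanogaster and 1 all D. simulans, and it is turned here into the percent from the mother's allele. Among the 126 hybrid slices of the ASE table, stau had a value in 126, Tl in 99, cad in 91 and exu in 25, while tor had 8, bcd 2, trk 1 and swa 1. An ASE value was missing where all reads were of one allele as well as where there were none: no value in the whole table was at 1 or −1, and of 23 hybrid slices with at least 20 counts for cad and none of the other allele, 0 had an ASE value. Slices with complete bias therefore do not enter the means of ASE.

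Tl RNA was almost all maternal. The maternal share was 99.2, 98.9 and 99.6% in melXsim 1, 2 and 3 and 98.7 and 99.2% in simXmel 1 and 2, so both directions overlapped near the ceiling. The maternal excess in limma was 7.13 on the log2 scale (SE 0.33, adjusted p = 2.17e-05) in melXsim and 6.59 (SE 0.40, adjusted p = 0.000109) in simXmel. stau was mostly maternal with a paternal part in every embryo, at 82.4, 81.5 and 87.9% against 79.6 and 81.3%. Its excess was 2.41 (SE 0.21, adjusted p = 0.000137) and 2.04 (SE 0.25, adjusted p = 0.000957). cad was mixed, with 68.7, 68.7 and 62.2% maternal in melXsim and 64.5 and 54.9% in simXmel, and its excess passed in melXsim (1.00, SE 0.20, adjusted p = 0.00481) but not in simXmel (0.57, SE 0.25, adjusted p = 0.0842). A call needed both directions, and 2 of 3 members tested, Tl and stau, had it, against 59.0% of all genes. For exu, ASE values were present in melXsim alone, where the maternal share was 85.8% over 14 slices, 71.8% over 2 and 87.7% over 9.

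**Figure D4:**
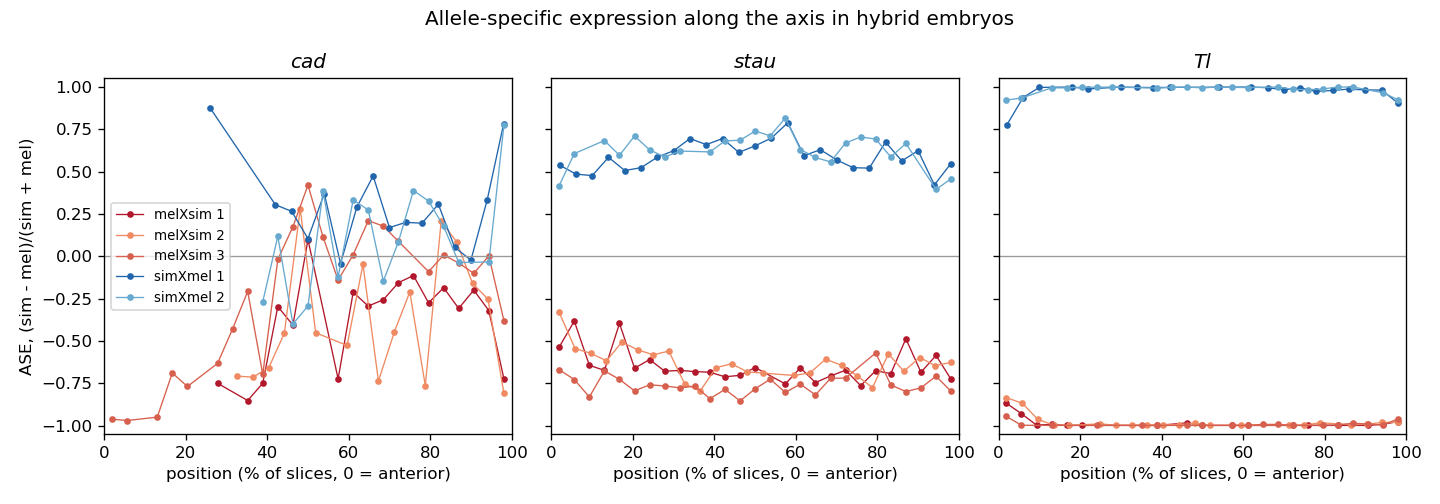
ASE of cad, stau and Tl (vertical axes, −1 for all D. melanogaster and 1 for all D. simulans) against slice position in percent of egg length (horizontal axes), with a point per slice coloured by hybrid embryo. Tl lies close to the mother's end in both directions, and stau between the mother's end and 0.

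For cad, dl and trk, all on 2L, allele counts could be used as well. In the shares and counts printed here each variant position is counted once. The tests used the deposited counts per gene, which can be larger: 138 against 28 for dl in the last slice of simXmel 1. A read over several positions counts several times, so these counts are not independent molecules. trk was mostly maternal, at 88.5, 77.7 and 91.2% in melXsim and 76.6 and 88.0% in simXmel, with an excess of 2.66 (adjusted p = 0.00278) and 2.30 (adjusted p = 0.0164) in edgeR's quasi-likelihood test. dl, which has no ASE value, was nearly all maternal in its few counts, at 100, 87.5 and 98.8% against 94.2 and 100%, and passed as well (adjusted p = 0.00674 in melXsim and 0.0151 in simXmel, edgeR). The 5 paternal dl counts of melXsim 2 all lay in its doubtful slice 21, and the edgeR test was not run without that slice. cad did not pass in melXsim in this test (0.49, adjusted p = 0.137) and did in simXmel (0.63, adjusted p = 0.0458). In all 2 of 3 members passed in both directions, against 57.4% of all genes tested this way. With each allele's column scaled by its own TMM factor, which sets the overall maternal excess to about 0, dl still passed (adjusted p = 0.0379), trk did not (0.58, adjusted p = 0.296), and cad turned to a paternal excess relative to other genes (−1.34, adjusted p = 0.00934).

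The dl counts in the last slice belonged to the mother's species. In simXmel 1 and 2 that slice held 28 and 21 D. simulans counts and 0 D. melanogaster counts, and in simXsim it held 113 against 4 in the rest of that embryo. In melXsim 1, 2 and 3 it held 0, 2 and 2 D. melanogaster counts and no D. simulans count, and in melXmel 1. The remaining slices of the melXsim embryos held 21, 33 and 82 D. melanogaster counts. The dl RNA of the simXsim embryo was thus mostly in its last slice and that of the melXsim embryos mostly elsewhere, with simXmel 1 (28 of 86 counts in the last slice) and simXmel 2 (21 of 30) between them. Of the 9 other dl counts of simXmel 2, 5 lay in its doubtful slice 3. No test was run on counts this small.

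The parental origin of cad changed along the axis. In the anterior region, where cad was low, the maternal allele made up 98.0, 94.7 and 89.7% of 147, 170 and 351 counts in melXsim and 97.2 and 95.9% of 109 and 49 counts in simXmel. In the middle region it was 64.3, 70.0 and 46.2% against 69.1 and 52.4%, and in the posterior region without the last slice 59.1, 54.6 and 49.7% against 57.1 and 54.4%. In every hybrid the anterior share was the highest of these 3 regions, and the last slice, behind the band, was again more maternal at 86.2, 88.1 and 67.4% against 89.4 and 88.6%. Counts of the wrong species in the parental embryos were 10 of 5159 in melXmel and 5 of 2073 in simXsim, which is the background of these shares, although in the anterior region of simXsim it was 3 of 44. The anterior to posterior change in the deposited counts per gene, a test added after the pattern was seen, was −4.15 (SE 0.29, adjusted p = 0.0285 in limma), with more maternal excess at the anterior. It was called for 1 of 3 members, against 0.282% of all genes. The adjusted p was 0.0501 when the last slice was left out of the posterior region, and between 0.086 and 0.186 without melXsim 1, melXsim 2, simXmel 1 or simXmel 2, each left out in turn, and the call held without melXsim 3.

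**Figure D5:**
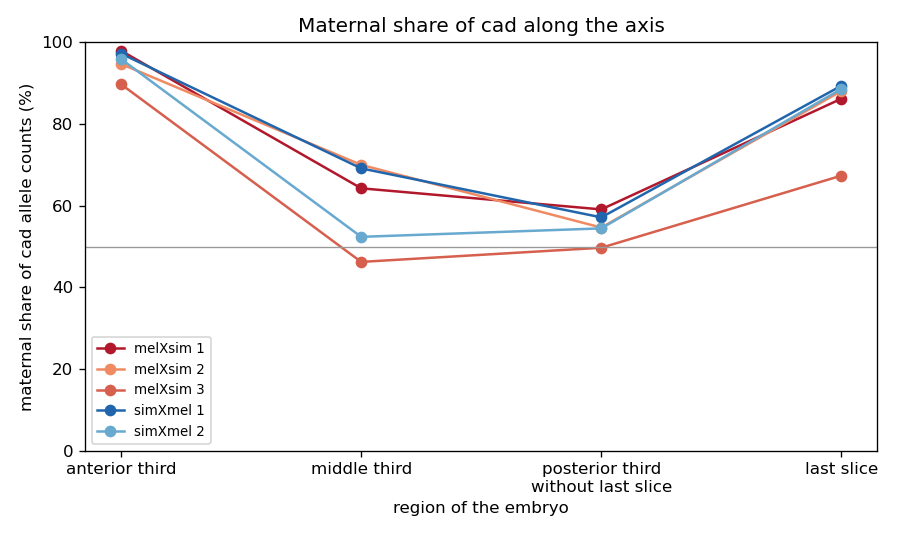
Percent of cad allele counts from the mother's allele (vertical axis) in the anterior region, the middle region, the posterior region without the last slice, and the last slice (horizontal axis), with a point per hybrid embryo coloured by cross. The share is 89.7 to 98.0% at the anterior, 49.7 to 59.1% in the posterior region and 67.4 to 89.4% in the last slice.

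Position explained part of the ASE of cad and almost none of that of Tl and stau. A logistic or Gaussian curve in position, fitted over all hybrids, accounted for a share of variance (R2) of 0.261 for cad over 91 slices, 0.00677 for Tl and 0.00611 for stau. The slices of both directions enter that fit with opposite signs of the maternal bias. Of 3 members fitted 0 reached an R2 of 0.45, which 1.19% of all genes did. When the maternal share was taken instead, the middle region was the most maternal region in 5 of 5 hybrids for both Tl and stau. It was 99.7 to 99.9% for Tl, with 97.5 to 99.2% at the anterior and 98.6 to 99.7% at the posterior, and 83.5 to 89.6% for stau, with 77.0 to 87.4% and 77.7 to 86.6%. Whether this order is particular to Tl and stau was not tested, as no share over all genes was taken. The Tl means rest on 99 of 126 slices, and slices with complete bias are not among them. The anterior against posterior change in the allele ratio did not pass for either gene, at 1.17 (SE 0.30, adjusted p = 0.0572) for Tl and 0.12 (SE 0.13, adjusted p = 0.559) for stau in limma. That is 0 of 2 members (1, Tl, at an unadjusted p under 0.05, 0.00604), against 8.93% of all genes.

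Other genes of the same pathways were taken from textbook lists. Of 12 tested genes of the anterior and posterior systems, nos was higher in simXmel (1.73, SE 0.51, adjusted p = 0.0391) and Vps25, a subunit of the ESCRT-II complex that is needed to localise bcd RNA, was lower (−1.42, SE 0.29, adjusted p = 0.00547 in limma). Along the axis 1 of these 12 was higher at the anterior (tud, 0.47) and 3 at the posterior, among them nos (−2.87) and osk (−1.23), where 19.3% of all genes passed. None of 6 tested dorsoventral genes differed between directions, and 1, the Toll ligand gene spz, was higher at the posterior (−0.66, SE 0.15, adjusted p = 0.0124). Of 10 terminal genes aos, a secreted inhibitor of EGF receptor signalling, was higher in simXmel (1.84, SE 0.35, adjusted p = 0.00366), and along the axis 3 of the 10 were higher at the anterior, among them aos (0.52) and Dsor1 (0.39), and 1, cic (−0.46), at the posterior. The median level difference was 0.31 over the 8 members and 0.12 over all genes.

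Of 13 tested zygotic targets of these systems, 6 were higher at the anterior, led by the head gap genes ems (5.66) and oc (4.61), 3 were higher at the posterior, among them tll (−1.76), the target of Torso signalling, and hb (−0.64), and 0 differed between directions in level. No zygotic target of 9 tested had a maternal excess in both directions, and their median excess was 0.06, against 2.02 over all genes tested. A maternal excess was called for 6 of 9 genes of the anterior and posterior systems (Stam 5.71, me31B 4.56), for 2 of 4 dorsoventral genes (Dif 3.78, cact 3.51) and for 5 of 7 terminal genes (rl 4.40, gro 3.74), where 59.0% of all genes were called. Their medians were 3.31, 2.24 and 2.22 on the log2 scale. The median of the 3 members was 2.23.

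The genes most like each member over the slices were named by Pearson's r of log2(FPKM + 1) over 169 slices of 7 embryos, given as a description. For cad these were veil (r = 0.773), mnd (0.764) and CG8147 (0.754), and within single embryos their r stayed at or above 0.632. For bcd they were CG14204 (0.621), CG11905 (0.601) and ImpL3 (0.599), with r as low as 0.0659 within a single embryo. For exu they were the germ plasm gene nos (0.736), CG17018 (0.705) and CG16817 (0.673), with r within a single embryo as low as 0.0836, −0.0977 and 0.104. They were for Tl the cell adhesion gene ed (0.859), Gp210 (0.853) and sdk (0.830), at or above 0.451 within single embryos. For trk the closest was CG10602 at 0.327. Among the members themselves dl and exu had the largest r, 0.637, followed by Tl and stau at 0.545, and bcd and cad had the most negative, −0.375. The slices of an embryo share their mother, library batch and depth, so these values carry no p.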

How the data were processed

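Single cryosliced blastoderm embryos were profiled by SMART-seq2. Per the paper's methods and the submitters' processing notes, the authors mapped reads with STAR 2.4.2a to a D. melanogaster genome (FlyBase release 5) with interspecies variants masked and computed FPKM with Cufflinks 2.2.1. For ASE they removed reads that remapped elsewhere after an allele swap. The authors left out slices of low depth or mapping rate. The deposited values are FPKM per gene and slice, an ASE score per gene and slice that the authors computed from reads assigned to a species, and allele counts per gene and per variant position. FPKM rests on a D. melanogaster-based genome in all crosses, and its effect on the level of D. simulans RNA was not tested. Counts of allele-assigned reads ran from 430706 to 3958310 per slice used, and FPKM gives no interval for counting error.

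The 9 genes, the pathway lists and the tests were chosen with earlier results of these data known. From the joint FPKM table, 169 slices were used, and 27 table columns that name no sample here were not used. Per embryo, FPKM was averaged over all slices, or over the anterior and the posterior region (the first and last of 3 equal stretches), put on the scale log2(mean + 1), subtracted between regions where these were compared, and tested between directions with limma 3.58.1 (R 4.3.3) across genes with a mean of at least 1 FPKM, with Benjamini-Hochberg adjustment and a threshold of 0.05. Mean ASE per embryo (at least 3 slices with a value) was turned into a log2 ratio of maternal to paternal allele and tested in limma for each direction, and a call needed both. Allele counts were used where a gene has the same coordinates in the count and FPKM files (3005 of 13427 genes, with cad, dl and trk among them), at least 20 counts, and tested with edgeR 4.0.16. The tests used the counts per gene, and the shares printed count each variant position once. The last-slice, first-slice and allele-count region tests were added after seeing the data. Nothing says that the embryos of a cross had different mothers, so p-values measure the spread between single embryos. Fits of level, anterior against posterior level, last slice, maternal excess and allele ratio were tested on simulated data. The spread simulated for the limma fits was below the observed one. Not simulated were the difference in slope, the first slice and the allele-count regions. Named are all 9 genes, up to 2 genes per list and direction by size of change, and the 3 most alike genes per member. Alternatives were another pseudocount, no filter, all slices, size factors, stretches of other lengths, medians, the batch or a replicate block as a term, other allele-count normalisations, and leaving out each embryo. Promoter sequences were not used here.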

Additional observations from a re-analysis of the deposited data

Results flagged for a closer look

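The anterior minus posterior difference of exu differed between the directions of the cross by −2.34 on the log2(mean FPKM + 1) scale (SE 0.30, adjusted p = 0.0174 in limma). It lay between −0.37 and 0.45 in the 3 melXsim embryos and at −2.55 and −1.99 in the simXmel embryos. The last slice held 82.8 and 71.7% of the summed exu FPKM of the simXmel embryos and 5.99 to 11.9% of that of the melXsim embryos. Without the 2 doubtful slices the difference was −2.99 (adjusted p = 0.0126). The call was lost without the filter on low values (adjusted p = 0.318), with all deposited slices (0.0593) and in 4 of 5 fits that left out 1 embryo (0.0585 to 0.161).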

How the results depend on the processing

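Of 386 recomputed values of single members, 342 kept their direction and side of the threshold, 30 lost the call, 7 gained it and 7 changed sign. Without a filter on low values, 0 members passed for level (755 genes in all), 682 genes passed along the axis, 0 members and 0 genes for the difference in slope, 275 genes in the last slice and 57 in the first. For level, 0 members passed with the batch term and 1 with medians over slices. For the difference in slope, all deposited slices left 0 members and 6 genes (exu adjusted p = 0.0593), and size factors left 19 genes. For allele counts along the axis, a minimum of 100 counts gave 14 genes, the batch term 1, and a posterior region without the last slice 0 members and 0 genes. With ASE centred within embryos 101 genes reached the R2 of 0.45. The sign turned for stau in level (−0.09 to 0.44 with single embryos left out) and slope (−0.03 to 0.09, likewise, and −0.02 with 4 stretches in place of 3), none of them called, for exu in level with medians (−0.89), for cad with a TMM factor per allele column (−1.34) and for trk along the axis in allele counts (−0.95 to 0.23, likewise). Causes were not tested.

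With single embryos left out, members called ranged from 0 to 2 and genes from 591 to 1235 for level, genes from 645 to 1214 along the axis, members from 0 to 1 and genes from 2 to 51 for the difference in slope, members from 0 to 1 and genes from 0 to 187 for the allele ratio, members from 0 to 1 and genes from 21 to 681 in the last slice, genes from 1 to 181 in the first, and members from 0 to 1 and genes from 0 to 3 for allele counts along the axis. Maternal excess in allele counts could not be refitted without a simXmel embryo, which leaves no residual spread in that direction.

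The replicate numbers are shared by 2 pairs of embryos, whose deviations correlated at 0.0944 and 0.0208 over 6722 genes, so the numbers were not taken as pairing. With the replicate block, 1 member passed for level (swa adjusted p = 0.0907), 2 members and 291 genes for the difference in slope (bcd 1.79, adjusted p = 0.000425), 1 member for the allele ratio (Tl 0.87, adjusted p = 0.0179), and bcd passed along the axis (1.16). As said above, bcd passed the filter of 1 FPKM through simXmel, where it was higher. Low FPKM limits bcd, dl and swa most, and 2 embryos limit every statement on simXmel.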

Other observations

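The yolk protein genes Yp1 and Yp2 averaged 22.93 and 10.99 FPKM in the embryo melXsim 2, while their sum with the chorion genes Cp36 and Cp38 was 0.1912 FPKM or less in each of the other 6 embryos. In slice 21 of melXsim 2, the slice with 17.98 FPKM of bcd, Yp1 stood at 15.88 FPKM against 45.73 in the higher of its neighbours. That slice also held 17.08 FPKM of swa against 2.71, and slice 3 of simXmel 2 held 9.01 against 0.31 and 19.77 of nos against 0.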
